A study of Danio rerio with 6 samples.

Results

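A set of 10 genes of the Notch pathway was followed by name in dissected zebrafish livers: the receptors *notch1a*, *notch1b*, *notch2* and *notch3*, the ligands *jag1a*, *jag1b* and *jag2b*, and the target genes *her6*, *her9* and *hey1*. They were found by symbol as 10 of the 25281 genes listed, and the rule uses their names alone. All livers came from larvae of the *Tg*(*fabp10a:pt-β-catenin*) line at 15 dpf, in which the hepatocyte-specific *fabp10a* promoter drives a stable, oncogenic *Xenopus* β-catenin, so GW7647-treated and DMSO-treated livers alike were injured and carried liver progenitor cells (LPCs). The larvae were kept for 2 days, from 13 to 15 dpf, in 1 μM GW7647, an agonist of the nuclear receptor PPARα, or in its vehicle DMSO. Each group had 3 libraries, numbered 1 to 3, each made from the pooled livers of many larvae, and untreated or transgene-negative livers were not analysed here.

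Notch receptors are single-pass membrane proteins that are switched on by Jagged or Delta ligands on a neighbouring cell. Ligand binding exposes the receptor to an ADAM protease and then to γ-secretase, and the freed intracellular domain enters the nucleus, joins the DNA-binding protein Rbpj and Mastermind, and turns on repressors of the Hes and Hey families (Her and Hey in zebrafish). In the liver the pathway is known for bile duct formation: human *JAG1* and *NOTCH2* are the genes mutated in Alagille syndrome, in which bile ducts are scarce, and Notch favours the biliary over the hepatocyte fate. Vessels and their mural cells also use it, so a whole liver holds Notch RNA from several cell types.

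The *her9* transcript was also measured by qRT-PCR in this study, which reported it lower with GW7647 in livers of a younger age than those sequenced. The primer pair is shown because *her9* is the member that had an assay of its own. The letters are 5′ to 3′ as listed by the study, with none singled out by capitals, and their place in the transcript was not analysed here.
her9 forward: aatgccagcgagcatagaaagtc
her9 reverse: tgcccaaggctctcgttgattc

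Exon reads per library ranged from 20387153 to 25224356 with GW7647 and from 19961881 to 22332909 with DMSO. Levels are given as CPM, read counts scaled to library size with TMM factors. Changes are log2 fold changes of GW7647 over DMSO estimated by edgeR (quasi-likelihood), with p-values adjusted by the Benjamini-Hochberg method over the 15705 genes with enough reads. A gene was called at an adjusted p of at most 0.05. Over all tested genes 864 were called higher and 559 lower with GW7647, while upper-quartile scaling gave 711 and 707, and library totals without a scaling factor 460 and 2382. The labels call the tissue liver, and summed hepatocyte markers reached 42120 to 45290 CPM with GW7647 and 29180 to 31540 CPM with DMSO. On that list *bhmt* and *apoa2* had the highest levels. By edgeR, 10 of 11 tested hepatocyte markers were higher with GW7647, 7 of them called, beside 5.5% of all tested genes called higher. The other, *fabp10a*, was called lower (log2 fold change -0.36, adjusted p = 0.0496), beside 3.56% of all tested genes called lower. Summed markers of the exocrine pancreas lay between 13.3 and 24.99 CPM with GW7647 but were 105.5 CPM in DMSO replicate 2, against 10.7 and 20.9 CPM in the other DMSO libraries.

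All 10 Notch genes were measured above the filter on low counts, and 0 of the 10 passed the test in either direction, beside 9.06% of all tested genes. Before adjustment 4 of the 10 (*notch2*, *jag1a*, *jag1b* and *her6*) had a p under 0.05, against 25.1% of all tested genes. DESeq2 called 0 of the 10 as well, with 4 under 0.05 before adjustment, beside 11.5% of all genes called. Limma on log2(TPM + 1) called 0, beside 12.1%, and limma on log2(RPKM + 1) called 3 (*notch2*, *jag1b* and *her6*), beside 14.7% of all genes there. With GW7647, 8 members were lower and 2 higher, although *jag2b* turned from higher to lower with upper-quartile scaling or with no scaling factor. Their median log2 fold change was -0.12, from -0.43 for *jag1a* to 0.53 for *hey1*, and that of all tested genes was -0.01. In bulk livers fewer cells of a type and less RNA per cell cannot be told apart.

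Same-numbered libraries deviated together, as described in the processing section, so a fit with the replicate number as a block was read beside the unblocked one. In the blocked fit 2 of the 10 members passed, *jag1b* (adjusted p = 0.015) and *notch2* (adjusted p = 0.049), both lower with GW7647. In that fit 17.7% of all tested genes were called, 9.95% higher and 7.72% lower. Their estimates were nearly the same in both fits, at -0.38 blocked and -0.39 unblocked for *jag1b*, and at -0.26 blocked and -0.27 unblocked for *notch2*. The unblocked fit had put them at an adjusted p of 0.10 and 0.11.

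Of the 4 receptors, *notch2* was the one whose groups parted. It encodes the receptor whose human counterpart is mutated in some families with Alagille syndrome, and lies on chromosome 8 from 19548985 to 19619792 (ENSDARG00000043130, plus strand, all positions as deposited, on a genome build not given in the sources used here). It was at 43.0, 40.7 and 42.0 CPM in GW7647 replicates 1, 2 and 3, against 55.0, 47.9 and 48.4 CPM in DMSO replicates 1, 2 and 3. Every GW7647 library was below every DMSO library, and the GW7647 libraries were the more alike, with 41.9 ± 1.17 CPM for GW7647 against 50.5 ± 3.96 CPM for DMSO (SD, n = 3 each). The log2 fold change of -0.27 (SE, standard error, 0.09, 95% interval -0.47 to -0.06) missed the threshold without the block (adjusted p = 0.11). Between same-numbered libraries the log2 ratio was -0.35, -0.23 and -0.20.

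*notch3*, the receptor of vascular mural cells in mammals, was the most abundant of the 4 per exon length (ENSDARG00000052139, chromosome 3 from 53526025 to 53559581, minus strand). Its level was 124.6, 87.6 and 104.2 CPM in the GW7647 libraries, against 115.6, 85.3 and 123.0 CPM in the DMSO libraries. The groups overlapped throughout, and replicate 2 was the lowest of both groups. The log2 fold change was -0.03 (95% interval -0.41 to 0.34, adjusted p = 0.93), and it turned positive without GW7647 replicate 2 (0.09), DMSO replicate 1 (0.02) or DMSO replicate 3 (0.07).

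The paralogs of mammalian *Notch1* were further down. *notch1b*, which is known from zebrafish endothelium and haematopoiesis (ENSDARG00000052094, chromosome 5 from 65679595 to 65782785, minus strand), stood at 23.3, 21.5 and 21.2 CPM with GW7647, against 24.0, 20.4 and 26.1 CPM with DMSO. The ranges overlapped, and the log2 fold change was -0.10 (95% interval -0.35 to 0.16, adjusted p = 0.65). *notch1a*, studied mostly in the embryonic nervous system and somites (ENSDARG00000103554, chromosome 21 from 4766244 to 4849056, minus strand), had 10.3, 8.33 and 6.70 CPM with GW7647, against 8.15, 7.87 and 11.7 CPM with DMSO. Its pairs went both ways, with log2 ratios of 0.33, 0.08 and -0.80 between same-numbered libraries. The estimate of -0.13 (95% interval -0.60 to 0.33, adjusted p = 0.74) turned positive without GW7647 replicate 3 (0.01) or DMSO replicate 3 (0.07).

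**Figure D1:**
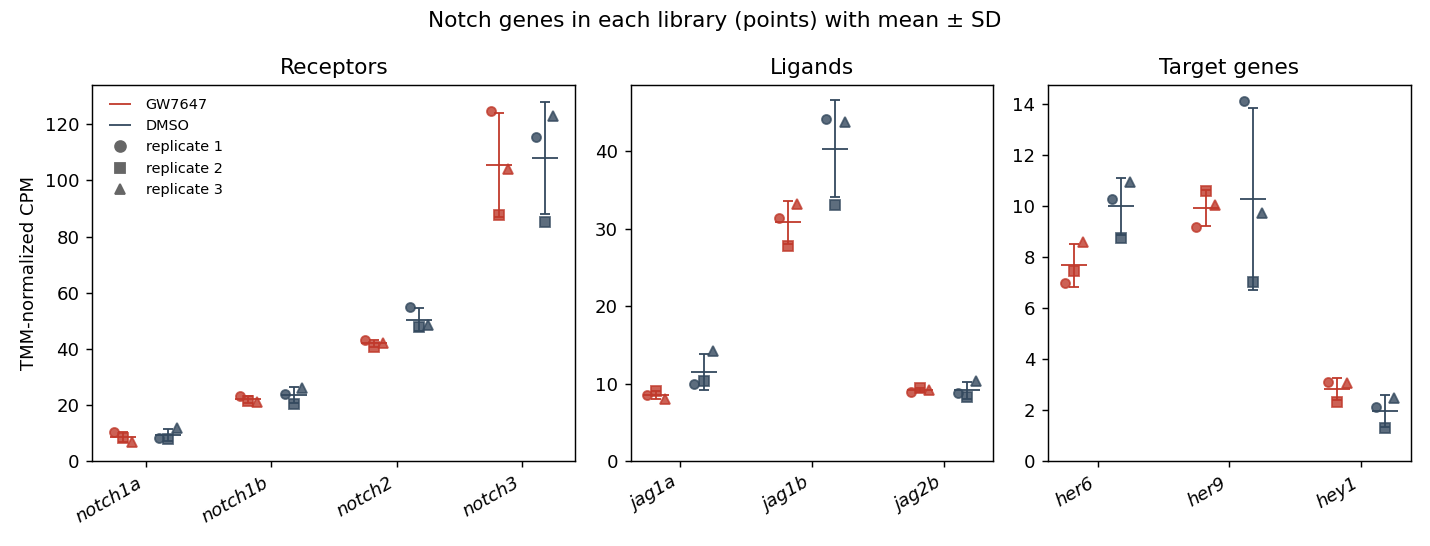
TMM-normalized CPM of the 10 Notch genes in each library (vertical axes, linear and starting at 0, one panel for each role), with GW7647 left of DMSO, points for the 3 replicates, and bars for mean ± SD. The GW7647 points lie below all DMSO points for *notch2*, *jag1a* and *her6*, while *notch3* and *her9* overlap, with replicate 2 of *her9* at 7.02 CPM and replicate 1 at 14.1 CPM among the DMSO libraries.

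Both *jag1* paralogs were lower with GW7647 in every same-numbered pair. *jag1b* (ENSDARG00000013168, chromosome 13 from 35339182 to 35390095, plus strand), one of the zebrafish counterparts of *JAG1*, was the most abundant of the 3 ligands per exon length. It was at 31.4, 27.8 and 33.2 CPM with GW7647 and 44.2, 33.1 and 43.8 CPM with DMSO. The groups overlapped, because GW7647 replicate 3 was just above DMSO replicate 2, the lowest DMSO library. The group means were 30.8 ± 2.74 CPM with GW7647 and 40.4 ± 6.28 CPM with DMSO (SD, n = 3 each), a log2 fold change of -0.39 (SE 0.13, 95% interval -0.69 to -0.09). Within pairs the log2 ratios were -0.49, -0.25 and -0.40. The adjusted p of 0.10 became 0.040 without DMSO replicate 2 (log2 fold change -0.51) and ran from 0.040 to 0.28 over the 6 libraries left out in turn.

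*jag1a* (ENSDARG00000030289, chromosome 1 from 51104984 to 51157660, minus strand) encodes the other Jagged1 protein of zebrafish. It had 8.53, 9.10 and 8.02 CPM in the GW7647 libraries, against 9.99, 10.4 and 14.2 CPM in the DMSO libraries. The groups did not overlap, and DMSO replicate 3 stood well above the other DMSO libraries. Its log2 fold change of -0.43 (SE 0.16, 95% interval -0.79 to -0.07) was the most negative of the 10 and was not called (adjusted p = 0.13, or 0.084 with the block). Without DMSO replicate 3 the estimate was -0.25.

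For *jag2b* (ENSDARG00000021389, chromosome 20 from 21391181 to 21475620, plus strand), a Jagged2 ligand linked with *jag1b* to bile duct development in zebrafish, the libraries were close together. They measured 8.97, 9.39 and 9.16 CPM with GW7647, against 8.75, 8.26 and 10.4 CPM with DMSO. The log2 fold change was 0.01 (95% interval -0.29 to 0.30, adjusted p = 0.98), an interval that covers changes in both directions. Summed over the 3 ligands, the level was 46.3 to 50.4 CPM with GW7647 and 51.7 to 68.4 CPM with DMSO.

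The 3 target genes did not share a direction. *her6* (ENSDARG00000006514, chromosome 6 from 36551083 to 36552844, minus strand) encodes the zebrafish counterpart of the repressor Hes1. It was at 6.96, 7.46 and 8.57 CPM with GW7647, against 10.3, 8.73 and 10.9 CPM with DMSO, from 128 to 202 reads in a GW7647 library and 204 to 250 in a DMSO library. All GW7647 libraries were below all DMSO libraries, though GW7647 replicate 3 came close to DMSO replicate 2. With GW7647 over DMSO, the estimate was -0.38 on the log2 scale (SE 0.14, 95% interval -0.70 to -0.05, adjusted p = 0.14, or 0.067 with the block). Over the 6 libraries left out in turn it stayed between -0.46 and -0.30.

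*her9* (ENSDARG00000056438, chromosome 23 from 23399520 to 23401305, minus strand), a related repressor counted among the markers of biliary epithelial cells (BECs), had 9.18, 10.6 and 10.01 CPM with GW7647, against 14.1, 7.02 and 9.70 CPM with DMSO. The GW7647 libraries were alike, whereas the DMSO libraries spread over a range that held all of them. Between same-numbered libraries the log2 ratio was -0.62, 0.59 and 0.05, so that the pairs did not share a direction. The log2 fold change of -0.05 (95% interval -0.56 to 0.46, adjusted p = 0.92) became 0.25 when DMSO replicate 1 was left out, 0.01 when GW7647 replicate 1 was, and -0.26 when DMSO replicate 2 was. The lower *her9* that the paper reported by qRT-PCR in younger livers was not seen in these libraries, though the interval includes decreases. From its RNA sequencing the paper also reported BEC marker genes as downregulated, and its running text does not name those genes.

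*hey1* (ENSDARG00000070538, chromosome 19 from 31797567 to 31802296, minus strand), a repressor of the Hey family known from vessels, was the least abundant member per exon length and the only one with a log2 fold change above 0.1. It had 57, 48 and 72 reads in the GW7647 libraries, against 46, 30 and 57 in the DMSO libraries, which made 3.10, 2.32 and 3.06 CPM with GW7647 and 2.12, 1.28 and 2.49 CPM with DMSO. The groups overlapped, since GW7647 replicate 2 was below DMSO replicate 3, but each GW7647 library was above its same-numbered DMSO library, by 0.55, 0.86 and 0.29 on the log2 scale. Its estimate over all libraries was 0.53 on the log2 scale (SE 0.27, 95% interval -0.09 to 1.14, adjusted p = 0.27, or 0.11 with the block). Without DMSO replicate 2, the lowest library, the estimate was 0.30. In neither fit was *hey1* called, and the part of depth in this was not tested.

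**Figure D2:**
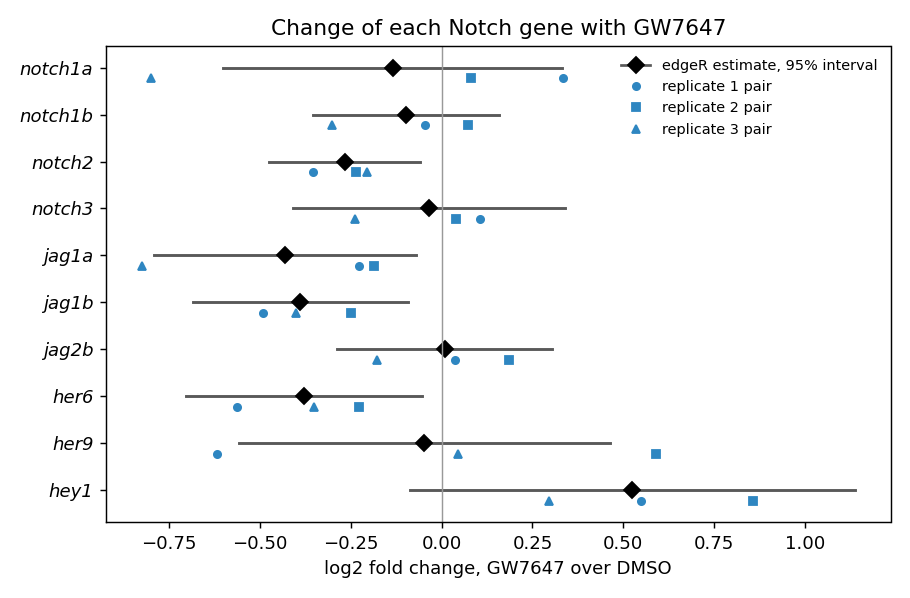
Log2 fold change of GW7647 over DMSO for each Notch gene (horizontal axis), as the edgeR estimate (diamond) with its 95% interval (line), above the log2 ratios of the 3 same-numbered library pairs (small symbols). The intervals of *notch2*, *jag1a*, *jag1b* and *her6* lie below 0 before any adjustment for the number of genes, and *hey1*, at 0.53, is the only estimate well above 0.

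Of the 10 members, 3 had groups that did not overlap, *notch2*, *jag1a* and *her6*, all with GW7647 below DMSO, and 15.3% of all tested genes did so in that direction. None had GW7647 above DMSO throughout, against 15.7% of all genes, and in either direction the share over all genes was 31%. In each same-numbered pair GW7647 was lower than DMSO for *notch2*, *jag1a*, *jag1b* and *her6*, and higher for *hey1*. The share of all tested genes whose 3 pairs went one way was not counted. Library totals without a scaling factor moved the median of all genes to -0.23. Under that setting *notch2*, *jag1a*, *jag1b* and *her6* were called lower, beside 18.1% of all genes called in either direction, but relative to the shifted median their log2 fold changes were -0.26, -0.42, -0.38 and -0.37, close to those after TMM scaling. Without DMSO replicate 2, the library with the pancreas markers, the log2 fold changes of *notch2*, *jag1a*, *jag1b* and *her6* were -0.30, -0.50, -0.51 and -0.46. That library was the lowest DMSO library for *notch2*, *jag1b* and *her6*. Over the 6 libraries left out in turn, the 4 genes ran from -0.30 to -0.20, -0.52 to -0.25, -0.51 to -0.32 and -0.46 to -0.30. The part of the pancreas markers in these values was not tested.

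Levels of different genes were compared only per exon length, in the TPM values that the authors' software had computed. *notch3* led with 14.6 ± 2.33 TPM in GW7647 livers and 17.2 ± 4.11 TPM in DMSO livers (SD, n = 3 each). It was followed by *her9*, *her6*, *jag1b* and *notch2*, whose means over the 6 libraries were 12.2, 10.9, 9.33 and 8.06 TPM. Among these 5, each overlapped in range with the one after it. Within a library, however, *notch3* was above *her9*, *her6* above *jag1b* and *jag1b* above *notch2* in 6 of 6 libraries, whereas *her9* was above *her6* in 4 of 6.

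The lower part of the order began with *notch1b* at 5.05 TPM, whose range overlapped with neither *notch2* above it nor *jag1a* below it. *jag1a* (2.66 TPM) and *jag2b* (2.54 TPM) could not be ordered, with *jag1a* above in 3 of 6 libraries. *notch1a* followed at 1.85 TPM and *hey1* at 1.25 TPM, with overlapping ranges. Between paralogs, *notch1b* was 2.37 to 3.35 times as high as *notch1a*, and *jag1b* 3.02 to 4.37 times as high as *jag1a*, depending on the library. The *notch1b* to *notch1a* and *jag1b* to *jag1a* ratios overlapped between the groups. The ratio of *her6* to *hey1* was 5.23, 7.47 and 6.54 in the GW7647 libraries, against 11.3, 15.8 and 10.2 in the DMSO libraries, without overlap. It sets a member that was lower with GW7647 against one that was higher, so it is no separate result. The share of gene pairs that part in this way was not counted.

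**Figure D3:**
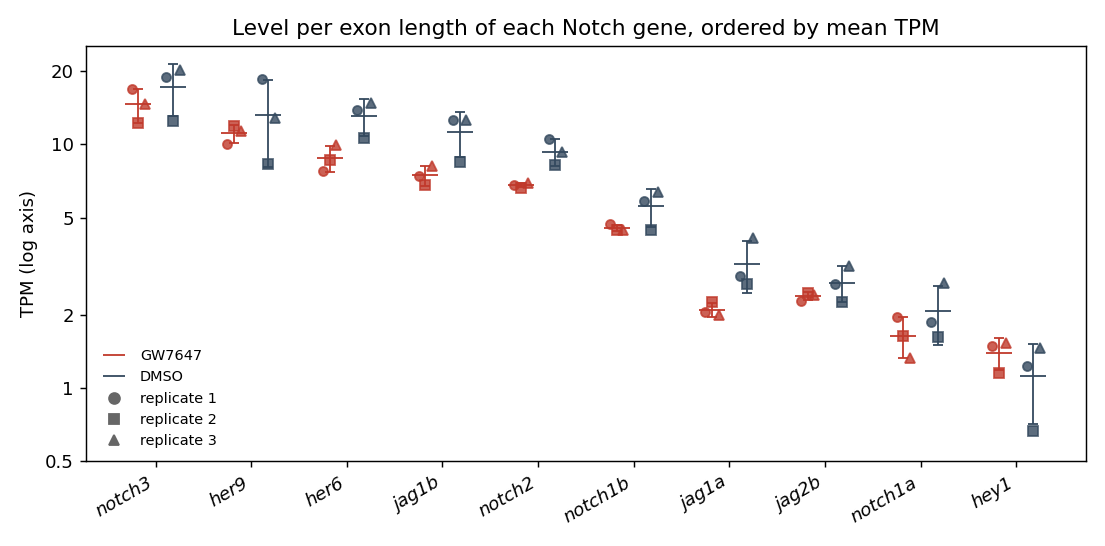
TPM of the Notch genes in each library (vertical log axis), ordered from left to right by mean TPM over the 6 libraries, with GW7647 left of DMSO, points for replicates, and bars for mean ± SD. *notch3* stands at the top with a mean of 15.9 TPM and *hey1* at the bottom with 1.25 TPM, and a gap separates *notch1b* from its neighbours on both sides.

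The remaining pathway was read from a list of 109 other genes, of which 96 were found and 70 had enough reads to be tested. With GW7647, 3 were called higher and 2 lower, and the median log2 fold change of the 70 was -0.02. For comparison, 5.5% of all tested genes were called higher and 3.56% lower. The replicate block called 6 higher and 3 lower of the 70, where it called 9.95% and 7.72% of all tested genes. The genes called were *ncor1*, *itcha* and *nedd4a* among those higher, and *lfng* and *neurl1b* among those lower.

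*lfng* (ENSDARG00000037879, chromosome 3 from 41917499 to 41926869) encodes Lunatic fringe, the glycosyltransferase that alters how Notch receptors respond to Jagged and Delta ligands. It had 13.4, 12.6 and 12.01 CPM with GW7647, against 18.04, 20.45 and 22.6 CPM with DMSO, without overlap. Its estimate was -0.68 on the log2 scale (SE 0.11, adjusted p = 0.0092), and it was called in all 16 alternative settings tried.

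The other 4 calls were nearer to the threshold than that of *lfng*, with adjusted p by edgeR from 0.025 to 0.049. *ncor1*, a co-repressor of Rbpj-bound genes that also serves nuclear receptors, had 96.4, 94.2 and 98.1 CPM with GW7647, against 79.4, 60.6 and 74.8 CPM with DMSO (0.43 on the log2 scale, adjusted p = 0.048). It held its call only without DMSO replicate 1 when single libraries were left out, and the same was true of *nedd4a*, a ubiquitin ligase of the family that marks Notch for turnover in flies and mammals, which had 78.7, 76.3 and 68.4 CPM with GW7647, against 62.2, 47.4 and 54.9 CPM with DMSO (0.44 on the log2 scale, adjusted p = 0.049). Over those 6 fits the adjusted p ran from 0.041 to 0.13 for *ncor1* and from 0.032 to 0.13 for *nedd4a*, and both also lost their calls with upper-quartile scaling, no scaling factor, TPM or RPKM, and *nedd4a* with total gene reads.

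Of the ligases near *nedd4a* in function, *itcha*, a counterpart of mammalian Itch, was at 26.4, 26.8 and 23.7 CPM with GW7647, against 19.9, 18.5 and 16.4 CPM with DMSO (0.49 on the log2 scale, adjusted p = 0.025). It was called only without GW7647 replicate 3 or DMSO replicate 1 when single libraries were left out, with adjusted p from 0.033 to 0.088 over the 6 libraries left out, and not with no scaling factor, TPM or RPKM. *neurl1b*, a Neuralized ligase that promotes ligand endocytosis, had 8.42, 8.52 and 7.21 CPM with GW7647, against 13.0, 10.2 and 12.4 CPM with DMSO (-0.56 on the log2 scale, adjusted p = 0.041). When single libraries were left out it was called only without DMSO replicate 2, with adjusted p from 0.043 to 0.13, while it was called in all of the other 10 settings. All 4 of these genes had groups that did not overlap, as did 31% of all tested genes. The 4 were picked by their calls on the same libraries, so this is no separate result.

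Among the other lists, 0 of 4 tested ligands, 0 of 9 target genes, 0 of 12 genes of the nuclear complex and 0 of 10 cleavage genes were called by edgeR, where 2, 1, 2 and 1 had an unadjusted p under 0.05. Over all tested genes these shares were 9.06% and 25.1%. The endothelial ligand *dll4* had a log2 fold change of 0.39 (adjusted p = 0.11, or 0.022 with the block). *jag2a*, the paralog of *jag2b*, was at -0.33 (adjusted p = 0.34). *egfl7*, a secreted endothelial protein counted on the ligand list and again on the endothelial list, was at -0.46 (adjusted p = 0.18). Of the transcriptional repressors related to the Her family, *bhlhe41* was at -0.60 (adjusted p = 0.11, or 0.025 with the block), *bhlhe40* at 0.21 and *her11* at 0.49. *maml3*, a Mastermind co-activator, came nearest to the threshold at 0.57 (adjusted p = 0.055), and it passed with the block (0.029) and in DESeq2. *furina*, a protease that matures Notch precursors in mammals, was at 0.26 (adjusted p = 0.26, or 0.047 with the block).

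The remaining genes named by the rule all missed the threshold. In the nuclear complex these were *fbxw7* (log2 fold change -0.27) and *crebbpa* (0.22), and among the co-repressors *tle5* (0.41), *tle2a* (-0.43) and *ctbp1* (0.21). For cleavage they were the γ-secretase subunit *psenen* (-0.24) and *adam17b* (-0.19), and for glycosylation *rfng* (-0.65), *pofut2* (-0.32) and *gxylt2* (-0.18). The Notch antagonists *numbl* and *numb* were at -0.99 and 0.17, and *neurl1aa* at -0.55, which became -0.05 without DMSO replicate 1. The *numbl* estimate, the largest change of the 70 tested genes, had an adjusted p of 0.14. It ran from -1.48 to -0.71 with 1 library left out and was -0.27 with RPKM. Library totals without a scaling factor turned *crebbpa*, *bhlhe40*, *ctbp1* and *numb* to just below 0.

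Of 27 further target genes found, 18 had too few reads to be tested. None of the 18 had more than 5 reads in any library, and 9 had none at all, which allows up to 0.163 CPM in the library with the highest floor of 3 reads. The 5 copies of *her4*, a widely used Notch reporter gene in the zebrafish nervous system, had 1 read in all libraries together. Reads shared between genes were counted for *her15.1* and *her15.2*, of whose exon reads 63.3% and 67.8% were uniquely mapped. Whether reads shared by the *her4* copies were discarded was not tested.

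**Figure D4:**
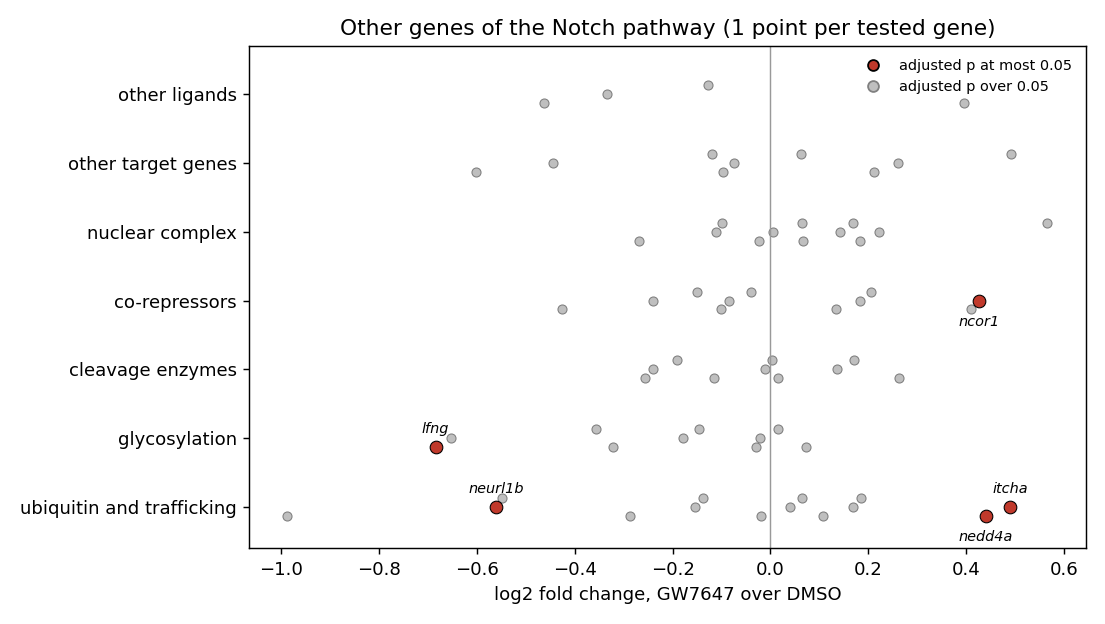
Log2 fold change of GW7647 over DMSO (horizontal axis) for each of the 70 tested genes on 7 lists of other Notch pathway genes (vertical axis), red where the adjusted p was at most 0.05 and grey otherwise. *lfng* at -0.68 stands furthest out among the 5 genes called, and the ligands, target genes, nuclear complex and cleavage enzymes show only grey points.

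Of the marker lists for cells that use Notch, 2 had lower summed levels with GW7647, those of BECs and LPCs and of mural and stellate cells. Macrophage markers, on another list, also summed lower, at 101.4 to 109.7 CPM with GW7647 and 110.2 to 137.5 CPM with DMSO. Of 9 tested macrophage genes 7 were lower and 2 higher, with *cd74a* and *spi1b* called lower (4 called lower with the block). Nervous markers summed lower (GW7647 4.35 to 6.29 CPM, DMSO 8.24 to 8.38 CPM) and intestinal markers higher (GW7647 74.6 to 101.0 CPM, DMSO 21.7 to 50.4 CPM). Each sum rested mostly on 1 gene. These were *sypa* (GW7647 2.94 to 4.45 CPM, DMSO 5.57 to 6.67 CPM) and *fabp2* (GW7647 70.5 to 97.7 CPM, DMSO 19.1 to 48.3 CPM). On each of these 2 lists 3 genes were tested and 0 called. With the block 1 nervous gene was called lower and 1 intestinal gene higher, beside 9.95% of all genes called higher. Over all tested genes 3.56% were called lower, and 7.72% with the block. Markers of BECs and LPCs were lower with GW7647 in 11 of 11 tested genes, 5 of them called (*epcam*, *cldn7b*, *tm4sf4*, *hnf1bb* and *sox9a*, and 6 with the block), with a summed level of 8503 to 8602 CPM with GW7647 and 9454 to 10330 CPM with DMSO. That summed level rested mostly on *anxa4* (log2 fold change -0.17, adjusted p = 0.28) and *krt8* (-0.13, adjusted p = 0.42), which edgeR did not call. The biliary channel gene *cftr* was too low to test. The member *her9*, also counted among BEC markers, was not on this list and was at -0.05 (adjusted p = 0.92). Markers of mural and stellate cells without *notch3* were lower in 11 of 11, with 6 called (*hand2*, *pdgfrb*, *pdgfra*, *acta2*, *colec11* and *lrata*, and 9 with the block), and summed to 97.7 to 107.8 CPM with GW7647 and 153.9 to 202.7 CPM with DMSO. *notch3* itself was at -0.03, and the 11 others ran from -1.54 to -0.06 with a median of -0.78. Endothelial markers were called in 0 of 12 by edgeR (1 with an unadjusted p under 0.05, and *stab2* called with the block at -1.13, adjusted p = 0.039), with overlapping sums of 232.8 to 269.0 CPM with GW7647 and 240.9 to 268.3 CPM with DMSO. The part of any of these cell types in the values of *notch2*, *jag1a*, *jag1b* and *her6* was not tested.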

How the data were processed

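Polyadenylated RNA of 6 libraries was sequenced with a stranded kit, and the authors mapped and counted reads per gene in CLC Genomics Workbench. Its version, the genome build and the use of strand are not given in the sources used here. The deposited tables hold whole-number counts of exon, intron and gene reads, which the authors left unnormalized, the TPM and RPKM that their software derived, and the fraction of a gene's reads in introns.

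Counts of total exon reads were tested with edgeR 4.0.16 (quasi-likelihood, TMM scaling, filterByExpr with a minimum count of 10) in R 4.3.3. Alternatives used DESeq2 1.42.0, limma 3.58.1 on log2(value + 1), other scalings, filters and read types, a replicate block, and each library left out. A fold change on the log2(value + 1) scale understates the change of low genes. Figures were drawn with matplotlib 3.10.9. A count of 3 reads, the floor, was worth 0.127 to 0.163 CPM, which covers counting error only. The edgeR, DESeq2 and limma fits were tested on simulated data, in which 200 genes with many reads were changed 2-fold. Of these 173 to 180 were recovered, with 4 to 8 false calls. Smaller changes, genes with few reads and paired libraries were not simulated, and limma was run there on CPM.

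Same-numbered libraries deviated together from their group means (correlations of 0.161 to 0.324 in 3 pairs, against -0.239 to 0.0754 in the other 6). Each group was centred on its own mean, so positive values in some pairs push the others down, and the contrast is partly built in. The deposited labels share numbers between groups, and on these grounds numbers were taken to pair libraries. Since the labels do not say that libraries came from separate clutches, p-values measure the spread between these libraries. Members and lists were chosen with earlier results of these data known. Text names all 10 members and, of each other list, every gene called and up to 3 others with the smallest p. One gene of the pathway lists is not reported here. Of the other 109, 91 were found by name and 5 through a table of gene names. No other listed gene overlapped a member's span. Promoters and proteins were not analysed here.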

Additional observations from a re-analysis of the deposited data

How the results depend on the processing

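Over 160 alternative values of the 10 members, 134 kept direction and side of the threshold, 10 newly passed it and 16 changed sign. Instead of 1423, the genes called were 2842 with no scaling factor, 2306 with limma on log2(RPKM + 1), 945 when a fold of 1.5 was also asked, and 711 to 1062 with 1 library left out. Of the members, 4 were called with no scaling factor, 3 with RPKM and 0 to 1 with 1 library left out (*jag1b* without DMSO replicate 2). The replicate block, which pairs same-numbered libraries, called 2775 genes and 2 members (*notch2* and *jag1b*). Among the genes named it also added calls for *dll4*, *bhlhe41*, *maml3* and *furina*, and it changed no other call.

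Leaving out 1 library gave ranges for *notch1a* of -0.30 to 0.075, *notch3* of -0.17 to 0.088, *jag2b* of -0.054 to 0.11 and *her9* of -0.26 to 0.25. *jag2b* was at -0.043 with upper-quartile scaling, -0.21 with no scaling factor, -0.0006 with at least 10 reads in every library, -0.13 with TPM and -0.11 with RPKM. *notch1b* was at 0.0038 with total gene reads. With no scaling factor *crebbpa* was at -0.0019, *bhlhe40* at -0.011, *ctbp1* at -0.019 and *numb* at -0.053, while *bhlhe40* was at -0.0011 with RPKM and *numb* at -0.0165 with TPM and -0.036 with RPKM. The median of all genes was -0.23 with no scaling factor, -0.15 with TPM and -0.14 with RPKM, and calls with TPM were 420 higher and 1474 lower. The cause of these sign changes was not tested. *hey1*, with 30 to 72 reads a library, had the widest interval of the members, and the part of depth in it was not tested.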

Other observations

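The share of *notch1b* reads that fell in introns was 17.9%, 12.1% and 16.4% in the GW7647 libraries, against 9.86%, 11.5% and 7.29% in the DMSO libraries, from 61 to 98 intron reads with GW7647 and 47 to 62 with DMSO. The groups did not overlap, with means of 15.4% ± 2.99 with GW7647 and 9.55% ± 2.12 with DMSO (SD, n = 3 each). The *notch2* share parted in the same direction, at 0.88%, 1.29% and 0.70% with GW7647 against 0.42%, 0.36% and 0.18% with DMSO. It rested on 2 to 11 intron reads a library. For all other members the intron shares of the groups overlapped. Over all genes, the intron share of a library was 2.78% to 3.53% with GW7647 and 3.39% to 3.73% with DMSO. How many of all genes part in this way was not counted. *notch1b* was picked out after these values were seen, so no test is given. Counted over the whole gene, its log2 fold change was 0.0038, against -0.10 over exons.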
